A study of Mus musculus with 60 samples.

Results

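Kinesins are motor proteins that walk along microtubules or take them apart, and their genes carry symbols that begin with Kif. One set of kinesins builds the mitotic spindle, moves chromosomes and closes the cell between daughters at cytokinesis. Another set carries vesicles, organelles and messenger RNA, and others work in cilia and in hedgehog signalling. The early embryo divides several times on proteins and transcripts stored in the oocyte before and while its own genome is switched on, so that the transcripts of division motors can come from either source.

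The genes described here were the rows of the expression table whose identifier belongs to a protein-coding gene with a symbol starting with Kif and a digit. The letters of the symbol picked 38 genes of the 27238 in the table. The family itself was chosen with earlier results of these data known. By role, 13 were spindle and cytokinesis motors (Kif2a, Kif2b, Kif2c, Kif4, Kif11, Kif14, Kif15, Kif18a, Kif18b, Kif20a, Kif20b, Kif22 and Kif23). A further 15 were transport motors (Kif1a, Kif1b, Kif1c, Kif3a, Kif3b, Kif3c, Kif5a, Kif5b, Kif5c, Kif13a, Kif13b, Kif16b, Kif17, Kif21a and Kif21b), and 6 belonged to the cilium and hedgehog set (Kif6, Kif7, Kif9, Kif19a, Kif24 and Kif27). Of the others, 3 had no role assigned (Kif26a, Kif26b and Kif28), and Kif1bp encodes a kinesin binding protein without a motor. Kif12 was not analysed here. The pseudogenes Kif22-ps and Kif4-ps are close copies of Kif22 and Kif4, so that reads of each pair may have been split and the values of both genes are uncertain to that extent.

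The study compared mouse embryos of 3 kinds at 6 stages, from the 1-cell (pronuclear) embryo to the blastula, with 3 single embryos in each of the 18 embryo groups. In vivo embryos came from superovulated C57BL/6 females mated with DBA2 males, and were taken from the animal at each stage. NTC embryos were made by injecting the nucleus of a cumulus cell (CC), one of the somatic cells around the oocyte, into an enucleated oocyte of an adult BDF1 female, and NTM embryos by injecting the nucleus of a mouse embryonic fibroblast (MEF) from a BDF1 fetus. Both kinds of nuclear transfer (NT) embryo were activated with strontium chloride in cytochalasin B and Scriptaid, an inhibitor of histone deacetylases, and were grown in culture. The in vivo embryos had neither the drugs nor the culture, and their oocytes came from C57BL/6 rather than BDF1 females. The cumulus donors were female, and the sex of the other embryos is not stated. Nuclear transfer, drugs, culture, oocyte strain and, for NTC embryos, sex therefore cannot be told apart in these comparisons. The donor cells, freshly collected CCs and passaged, serum-starved MEFs, gave 3 libraries each. The study describes all 60 libraries as BDF1, but transcripts stored in the oocyte were C57BL/6 in in vivo embryos. Embryos were chosen by their morphology, and transcripts were sequenced from amplified cDNA of whole embryos. Values were scaled within each library, so that they give a transcript's share of the reads and not its amount per cell or per embryo. In embryos of several cells, a lower share in all cells and a loss in some of them cannot be told apart.

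Values were RPKM, that is reads on a gene scaled to its transcript length and to the total reads on genes, so that levels of different genes are compared per length. Reads on genes, recovered from the table, ranged from 5294167 to 26281508 in embryos and from 31558140 to 47830132 in donor cells. For a transcript of 3000 bases, 3 reads corresponded to between 0.0209 and 0.189 RPKM over the libraries, and values near or under this level carry little information. Mitochondrial genes took 5.68% to 8.87% of reads in in vivo 4-cell embryos and 29.6% to 40.4% in NT 4-cell embryos. Markers of oocytes summed to 2746 to 6307 RPKM in 1-cell embryos. The fibroblast list summed to 8781 to 11510 RPKM in MEFs and at most 6.47 in CCs. The cumulus list summed to 643 to 1305 RPKM in CCs, but also to 517 to 1231 in MEFs, and its marker Has2 was listed at 0 in all CC libraries. The library CC replicate 1 stood apart from the other CCs: its 8 proliferation markers summed to 352 RPKM, against 1.39 and 3.01.

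Promoter sequence was looked at for the kinesin genes that had a promoter window in RefSeq. A cell cycle genes homology region (CHR, searched as TTTGAA) and CCAAT boxes (CCAAT) are known elements of promoters that are active in dividing cells, and both were searched on both strands in RefSeq windows of the GRCm38.p6 assembly, from 250 bases before to 50 bases after each start. In all, 30 of the kinesin genes matched 34 windows. TTTGAA stood in 35.3% of these windows and in 17.9% of all 32851 windows. It was present in 9 of the 13 windows of spindle genes and 3 of the 21 windows of other kinesin genes. CCAAT stood in 44.1% of kinesin windows and 37.4% of all, and both motifs in 23.5% and 6.95%. In no kinesin window did the 2 motifs overlap. The motifs and the genes printed were chosen after the expression values had been seen, and a match of letters is a description, not evidence that a factor binds.

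The 100 bases before the start are shown for 5 spindle genes and, for contrast, 2 transport genes whose level moved at the same stages. Each runs 5′ to 3′ on the strand of its gene, and capitals mark the CHR letters, the CCAAT box or their reverse complements.
Kif22 (chr7:127042421-127042520, minus strand): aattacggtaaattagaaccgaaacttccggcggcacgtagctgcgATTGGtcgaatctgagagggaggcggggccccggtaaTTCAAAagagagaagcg
Kif11 (chr19:37376282-37376381, plus strand): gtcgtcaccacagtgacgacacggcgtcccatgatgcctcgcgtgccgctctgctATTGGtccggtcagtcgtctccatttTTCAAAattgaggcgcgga
Kif18b (chr11:102925125-102925224, minus strand): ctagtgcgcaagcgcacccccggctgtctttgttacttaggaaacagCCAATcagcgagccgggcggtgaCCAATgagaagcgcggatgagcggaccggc
Kif23 (chr9:61946800-61946899, minus strand): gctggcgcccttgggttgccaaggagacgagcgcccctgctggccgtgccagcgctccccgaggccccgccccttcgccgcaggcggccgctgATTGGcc
Kif18a (chr2:109280638-109280737, plus strand): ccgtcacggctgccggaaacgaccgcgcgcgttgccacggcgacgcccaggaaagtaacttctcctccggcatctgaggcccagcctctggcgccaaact
Kif17 (chr4:138262151-138262250, plus strand): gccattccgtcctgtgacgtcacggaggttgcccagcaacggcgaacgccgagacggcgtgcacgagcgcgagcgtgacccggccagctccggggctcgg
Kif3c (chr12:3365032-3365131, plus strand): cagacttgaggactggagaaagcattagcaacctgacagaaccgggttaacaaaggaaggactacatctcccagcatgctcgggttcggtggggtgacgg

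Kif22 and Kif11 held a CHR close to the start, with its first base 17 and 19 bases before it, and a CCAAT box 54 and 45 bases before it. Kif18b held 2 CCAAT boxes in this stretch and Kif23 held 1, and both held a CHR just after the start, within the window searched but outside the stretch shown. The stretches of Kif18a, Kif17 and Kif3c held neither motif. Of other genes named often below, Kif2c is not shown. Its window held a CHR with its first base at -103 relative to the start and no CCAAT box. Kif20a had no window.

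The level of kinesin transcripts differed widely among the genes. Over all 54 embryo libraries, 9 of the 38 genes stayed under 1 RPKM (Kif1a, Kif2b, Kif5a, Kif6, Kif7, Kif19a, Kif26a, Kif26b and Kif28), and 23 reached a mean of at least 5 RPKM in some embryo group. Kif2a, Kif11, Kif16b, Kif18a, Kif20b, Kif22, Kif4, Kif5b, Kif1b and Kif1bp were above 0 in every embryo library.

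**Figure D1:**
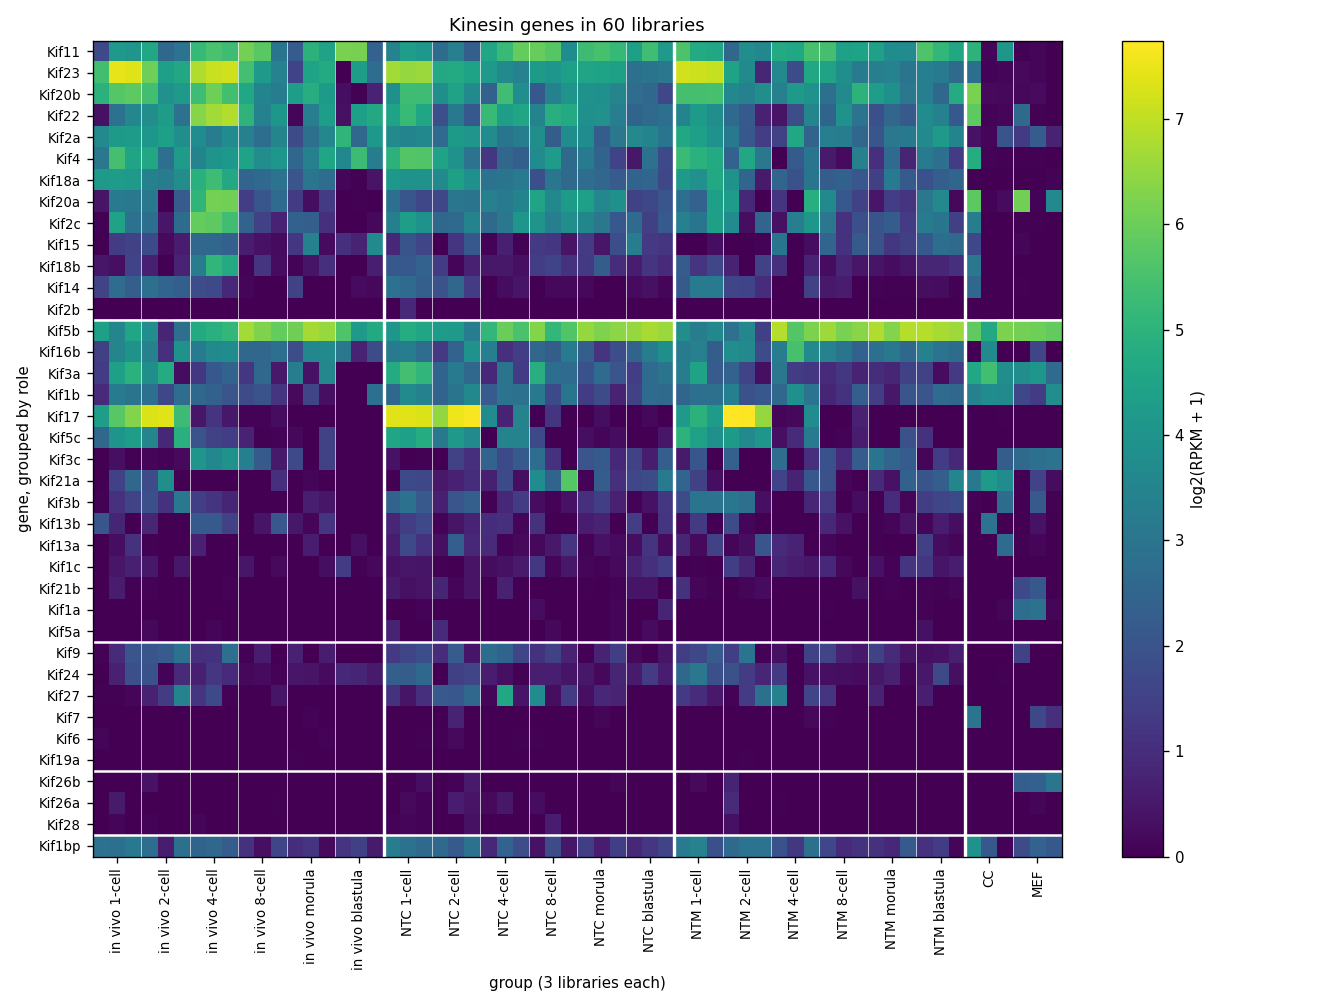
Level of the 38 genes (vertical axis, grouped by role) in 60 libraries (horizontal axis, 3 per group), with colour giving log2(RPKM + 1). Kif17 is bright at the 1-cell and 2-cell stages, Kif5b from the 8-cell stage on, though less so in in vivo blastulas, and several spindle genes in the in vivo 4-cell embryos.

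The kinesin gene with the highest mean level changed with the stage. Kif23, the motor of the centralspindlin complex that acts in cytokinesis, led in in vivo 1-cell embryos (40.9, 176 and 165 RPKM), in NTM 1-cell embryos (149, 140.2 and 134) and in in vivo 4-cell embryos (112, 137 and 145). Kif17, a transport motor of the kinesin-2 family, led in NTC 1-cell embryos and in the 2-cell embryos of every kind. Kif5b, the ubiquitous kinesin-1 heavy chain, led from the 8-cell stage to the morula in vivo, from the 4-cell stage to the blastula in both NT series, and in CCs and MEFs. In in vivo blastulas Kif11, the kinesin-5 motor that pushes spindle poles apart, led with 71.2, 70.6 and 4.37 RPKM, so that replicate 3 lay far below the others.

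The sum over the 13 spindle genes was highest in the in vivo 4-cell embryos, at 426, 575 and 533 RPKM. The in vivo 2-cell embryos gave 213, 97.0 and 113 RPKM, and the 8-cell embryos 209, 121 and 81.3. No such peak was seen in the NT embryos, which gave 115, 145 and 152 RPKM (NTC) and 63.3, 86.0 and 158 RPKM (NTM) at the 4-cell stage. At the 1-cell stage the sums were 113, 367 and 326 RPKM in vivo, 231 to 296 in NTC and 312 to 351 in NTM embryos. The NT ranges fell within the in vivo range only through in vivo replicate 1, a library with fewer genes above 0 than the others of its group. Every NTC embryo lay below the other in vivo embryos, and the NTM range overlapped theirs in part. The sum over the 15 transport genes did not share the 4-cell peak: at that stage it was 65.1 to 72.9 RPKM in vivo, 67.4 to 94.4 in NTC and 112 to 149 in NTM embryos. Single genes of high level, such as Kif17 with a mean of 120 RPKM in in vivo 2-cell embryos, weigh heavily in this sum. Kif3c and Kif13b did have their highest group mean in in vivo 4-cell embryos (13.7 and 2.98 RPKM), unlike the other transport genes.

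**Figure D2:**
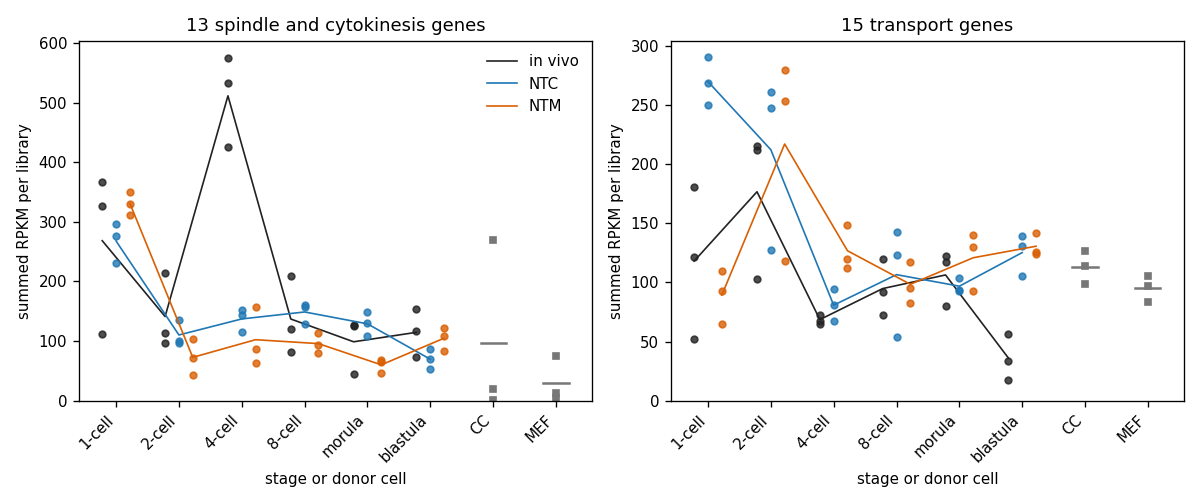
Summed RPKM per library (vertical axis) of the spindle genes (left) and the transport genes (right) by stage and donor cell, with points for single libraries and lines or bars for group means. At the 4-cell stage the in vivo spindle sums (426 to 575) lie above all NT sums (63.3 to 158).

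The first comparison asked how kinesin transcripts changed between successive stages in vivo. Calls below are from limma on log2(RPKM + 1), at an adjusted p under 0.05 over all genes tested and a change of 1 or more on the log2 scale. Each fold change is on that scale and understates the change of genes of low level. Each count of kinesin genes called in these fits stands beside the share of all genes called. Counts at an unadjusted p and counts under other settings have no such share beside them, so they do not set kinesin genes apart. Between the 1-cell and 2-cell stages, 0 of 25 tested kinesin genes were called, 2 had an unadjusted p under 0.05, and of all genes tested 0% were called. One fit over all 20 groups called 1.

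From the 2-cell to the 4-cell stage in vivo, 12 of 26 tested kinesin genes were called (46.2%), against 52.2% of all genes. The count as a whole was thus no higher than the background. By direction, 11 were higher (42.3%, against 31.4% of all genes) and 1 lower (3.85%, against 20.8%). The spindle set held 8 of the 11 higher genes, out of 12 tested, with a median log2 change of 1.81 against 0.36 for all genes tested. The 10 transport genes tested had a median of -0.48.

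Kif20a, a kinesin-6 motor of the central spindle, was at 7.80, 0.0190 and 3.63 RPKM at the 2-cell stage and at 32.2, 68.6 and 67.7 at the 4-cell stage. Its log2 change was 3.97 ± 0.80 (SE, n = 3 per group, limma, adjusted p = 0.0049). The stages did not overlap, as was the case for 61.4% of all genes tested, though the 2-cell embryos varied widely. Kif18b, a kinesin-8 that helps position the spindle, rose from 0.586, 0 and 0.661 RPKM to 8.50, 33.3 and 25.6, a log2 change of 3.89 ± 0.56 (limma, adjusted p = 9.7e-04). Kif2c, a kinesin-13 that takes microtubules apart at centromeres, rose from 5.95, 0.396 and 5.67 RPKM to 59.3, 55.7 and 40.5, a log2 change of 3.70 ± 0.66 (limma, adjusted p = 0.0028). In both genes each 4-cell embryo lay above each 2-cell embryo.

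Kif22, a chromosome-bound motor that moves chromosome arms, rose from 13.3, 18.5 and 6.37 RPKM to 79.4, 101 and 116 (log2 change 2.96 ± 0.45, limma, adjusted p = 0.0013). Kif23 rose by 2.02 ± 0.48, Kif11 by 1.96 ± 0.56, Kif15 by 1.66 ± 0.47 and Kif18a by 1.48 ± 0.36 on the log2 scale. Kif4, Kif14, Kif20b and Kif2a, the other spindle genes tested, were not called. The spindle genes that rose thus included motors of the kinetochore, the chromosome arm, the pole and the midzone.

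Among the transport genes, Kif17 fell and 3 genes rose. Kif17 was at 156, 167 and 38.4 RPKM at the 2-cell stage and at 0.398, 1.25 and 0.428 at the 4-cell stage, a log2 change of -5.94 ± 0.62 (limma, adjusted p = 2.4e-04). Even the lowest 2-cell embryo stood far above every 4-cell embryo. Kif3c, another kinesin-2 motor subunit, was at 0.0863, 0.0525 and 0.150 RPKM and then at 15.5, 11.2 and 14.5, a log2 change of 3.73 ± 0.33 (limma, adjusted p = 1.3e-04). The 2 kinesin-2 genes thus moved in opposite directions, with no overlap between stages in either. Kif5b rose by 2.44 ± 0.74 and Kif13b, a kinesin-3 carrier, by 1.67 ± 0.42 on the log2 scale. The cilium genes tested (Kif9, Kif24 and Kif27) were not called.

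**Figure D3:**
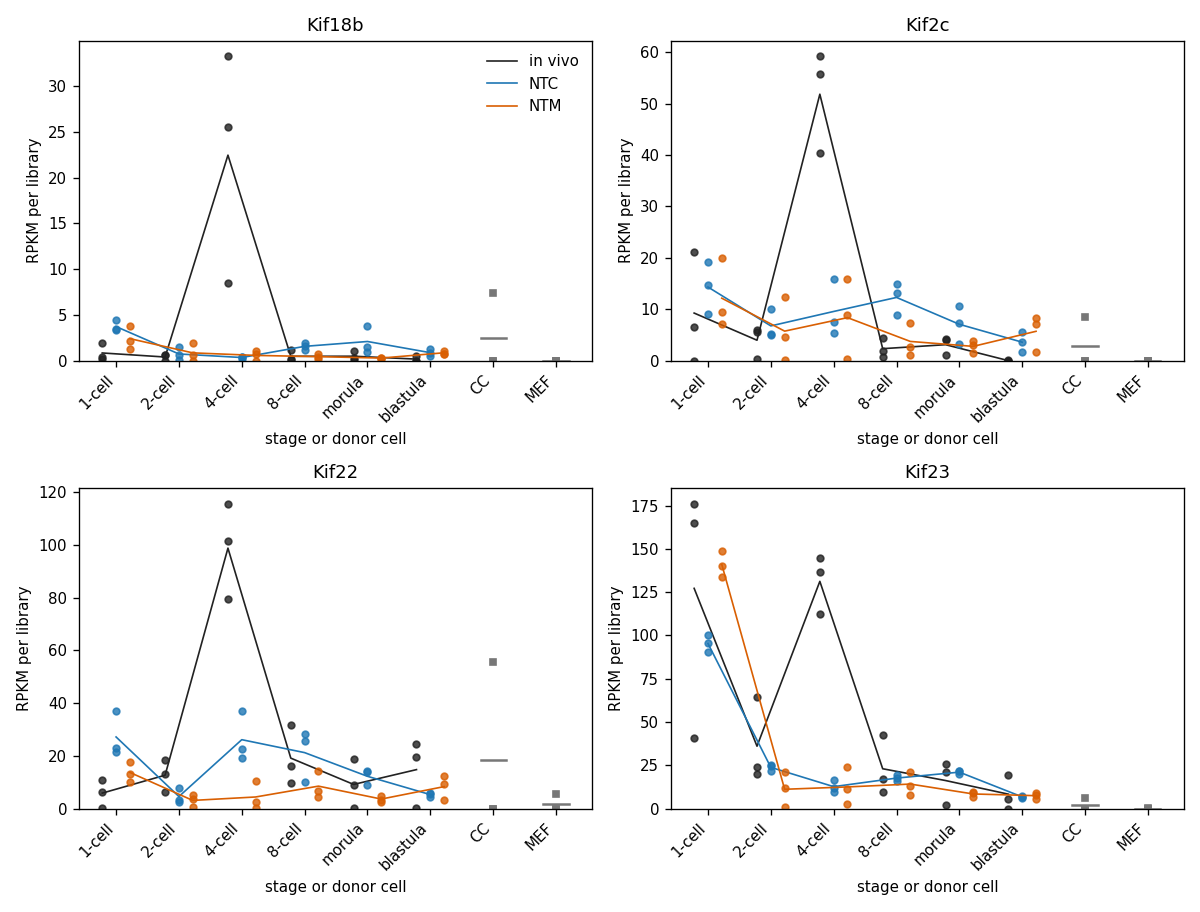
RPKM per library (vertical axes, linear) of Kif18b, Kif2c, Kif22 and Kif23 by stage and donor cell (horizontal axes), with points for single libraries and lines or bars for group means. In each panel the in vivo 4-cell embryos lie above all NT 4-cell embryos, for Kif2c at 40.5 to 59.3 against 0.277 to 16.0 RPKM.

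From the 4-cell to the 8-cell stage in vivo, 13 of 24 kinesin genes were called (54.2%, against 43.7% of all genes), 12 of them lower (against 39.3% of all genes) and 1 higher (4.17%, against 4.40%). The set of 12 spindle genes tested had 9 lower, with a median log2 change of -2.19 against -1.05 for all genes. Kif2c fell to 4.53, 1.85 and 0.711 RPKM (log2 change -4.12 ± 0.48, limma, adjusted p = 4.8e-04). Kif18b fell to 0.0587, 1.23 and 0.193 RPKM (-3.86 ± 0.58) and Kif20a to 1.66, 3.20 and 5.54 RPKM (-3.70 ± 0.48). All 8-cell values of these genes lay under all 4-cell values given above, and 55.6% of all genes had no overlap between these stages.

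Kif23 fell by 2.69 ± 0.49 to 42.4, 17.1 and 9.77 RPKM, Kif22 by 2.44 ± 0.44 to 31.7, 9.62 and 16.2, and Kif18a by 2.27 ± 0.35 on the log2 scale. Kif15, Kif20b and Kif14 were the other spindle genes that fell. Outside the spindle set, Kif1bp, Kif5c and Kif3b fell, and Kif5b rose from 25.5, 28.9 and 33.6 RPKM to 101, 75.1 and 59.3 (1.36 ± 0.30, limma, adjusted p = 0.0085). In vivo 8-cell embryos also had 32.1% to 45.05% mitochondrial reads, and that share's part in the result was not tested beyond scaling to nuclear reads. With that scaling, chosen after seeing the data, 10 genes were lower and 1 higher. Median-ratio scaling left 5 lower and 2 higher and moved the median of all genes from -1.05 to -0.33. The shares of all genes given above are from the fit without these scalings and do not apply to these counts. Of the 13 calls, 6 were kept under median-ratio scaling, and those of Kif22 and Kif18a were among the calls lost. The higher genes under that scaling were Kif5b and Kif4, a spindle gene not called in the reported fit (1.57 ± 0.35, limma, adjusted p = 0.012).

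From morula to blastula in vivo, 1 of 16 kinesin genes was called (6.25%, against 0.452% of all genes lower). Kif20b, a motor of late cytokinesis, was at 19.2, 27.2 and 17.6 RPKM in morulae and at 0.217, 0.0420 and 0.657 in blastulas, a log2 change of -4.10 ± 0.75 (limma, adjusted p = 0.048). The 2 stages did not overlap, as in 27.0% of all genes. The call was lost without any 1 of the morula embryos, without blastula replicates 2 or 3 and with no filter on low values, with adjusted p up to 0.30 over the alternatives.

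The same transitions were then examined in NT embryos. Between the 1-cell and 2-cell stages, 4 of 27 kinesin genes were called in NTC embryos, all lower (14.8%, against 8.95% of all genes), and 4 of 26 in NTM embryos (15.4%, against 9.40% of all genes), 1 higher (3.85%, against 2.72%) and 3 lower (11.5%, against 6.68%). In NTC embryos Kif22 fell from 21.7, 36.9 and 23.1 RPKM to 2.69, 7.83 and 3.35 (log2 change -2.40 ± 0.42, limma, adjusted p = 0.0080). Kif3a, a kinesin-2 subunit that also works in cilia and is counted here with the transport motors, fell from 26.0, 42.3 and 33.6 RPKM to 4.65, 7.98 and 5.06 (-2.35 ± 0.34). Kif23 fell from 100.3, 90.4 and 95.4 RPKM to 24.5, 25.5 and 21.6 (-1.96 ± 0.22), with little spread within either stage. None of these 3 genes overlapped between the stages, against 35.9% of all genes without overlap. Kif4, a chromokinesin, fell by 1.64 ± 0.42 on the log2 scale, a call kept in 4 of 13 alternatives. In one fit over all 20 groups 0 of these 4 genes were called, and Kif18b and Kif24 were.

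In NTM embryos Kif23 fell from 149, 140.2 and 134 RPKM to 21.2, 11.7 and 0.778 (-4.16 ± 0.81, limma, adjusted p = 0.016). Kif2a and Kif20b fell by 2.12 ± 0.56 and 1.87 ± 0.36 on the log2 scale, and the call of Kif2a was kept in 3 of 13 alternatives. The count of 4 fell to 1, 1 and 0 without NTM 1-cell replicates 1, 2 and 3. Kif17 moved the other way, from 17.0, 30.7 and 17.9 RPKM to 213, 207 and 91.0 (2.86 ± 0.44, limma, adjusted p = 0.0063), and its stages did not overlap, as in 33.0% of all genes.

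In the step to the 4-cell stage, 6 of 27 kinesin genes were called in NTC embryos (22.2%, against 36.6% of all genes), 3 higher (11.1%, against 16.4% of all genes) and 3 lower (11.1%, against 20.1%). In NTM embryos 2 of 27 were called (7.41%, against 26.4% of all genes), 1 higher (3.70%, against 12.1%) and 1 lower (3.70%, against 14.3%). All these shares lay under their background. Kif17 fell from 88.6, 185 and 201 RPKM to 12.3, 0.700 and 10.03 in NTC embryos (-4.57 ± 0.78, limma, adjusted p = 0.0025) and from 213, 207 and 91.0 RPKM to 0.0753, 0.134 and 12.7 in NTM embryos (-5.97 ± 1.02, limma, adjusted p = 0.0038). Kif17 was lower in every 4-cell embryo than in every 2-cell embryo of all 3 kinds. Between these stages 50.5% of all genes had no overlap in NTC and 43.9% in NTM embryos.

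In NTC embryos Kif11 rose from 5.60, 9.42 and 4.12 RPKM to 22.5, 37.3 and 59.1 (2.42 ± 0.51) and Kif22 from 2.69, 7.83 and 3.35 RPKM to 36.9, 19.1 and 22.5 (2.33 ± 0.51). Kif4 and Kif14 fell by 1.75 ± 0.59 and 1.72 ± 0.52 on the log2 scale, with calls kept in 3 and 6 of 13 alternatives. Kif5b rose in both kinds, by 1.64 ± 0.44 in NTC and by 3.61 ± 0.72 in NTM embryos, where it went from 6.47, 10.98 and 1.76 RPKM to 118, 50.1 and 73.2. All 3 NTM 4-cell embryos lay above the 2-cell embryos.

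Between the 4-cell and 8-cell stages, 0 of 24 kinesin genes were called in NTC and 0 of 22 in NTM embryos, with 3 and 1 at an unadjusted p under 0.05 (limma), and with 0.0564% and 0.363% of all genes called. From morula to blastula 2 of 22 fell in NTC embryos (9.09%, against 2.62% of all genes) and 0 of 23 were called in NTM embryos, with 3 at an unadjusted p under 0.05 (limma) and 4.22% of all genes called. Kif20a went from 19.6, 10.999 and 13.7 RPKM to 1.80, 2.201 and 3.15 in NTC embryos (-2.21 ± 0.40, limma, adjusted p = 0.014) and Kif23 from 21.8, 21.6 and 19.9 to 6.195, 6.95 and 7.32 (-1.50 ± 0.33, limma, adjusted p = 0.029). The values of each gene were tight and did not overlap, as in 30.6% of all genes, but both calls were lost in one fit over all 20 groups and with no filter on low values, and the count fell to 0 without NTC morula replicates 1 or 3 or NTC blastula replicates 1 or 2, and to 1 without NTC morula replicate 2.

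The second question was how NT embryos differed from in vivo embryos of the same stage. At the 1-cell, 2-cell, 8-cell and morula stages, 0 kinesin genes were called in either kind, among 19 to 28 tested. Of all genes, 1.16% and 1.28% were called in NTC and NTM embryos at the 1-cell stage, 0.152% and 0.141% at the 2-cell stage, 1.46% and 2.02% at the 8-cell stage and 0.0321% and 0.168% in morulae. These counts do not show equal levels, since 3 embryos a group resolve only large differences. At an unadjusted p under 0.05, 0 to 5 genes were found at each of these stages and kinds. Without in vivo 1-cell replicate 1, in which 9491 genes were above 0 against 12187 and 12593 in the others, 2 genes were called in NTC and 1 in NTM 1-cell embryos. The NTC and NTM comparisons share the in vivo embryos, so that they are not independent of each other.

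At the 4-cell stage the difference was large and lay mainly in the spindle set. In NTC embryos 9 of 26 kinesin genes were called, all lower (34.6%, against 20.4% of all genes), and in NTM embryos 8 of 26, all lower (30.8%, against 17.8%). Of the 12 spindle genes tested, 8 were lower in NTC and 6 in NTM embryos, with median log2 differences of -1.93 and -2.31. The medians over all genes were -0.39 and -0.69. The 10 transport genes tested had medians of 0.07 in NTC and 0.26 in NTM embryos, with 1 and 2 genes lower. The in vivo 4-cell embryos used here also enter the rise from the 2-cell stage and the fall to the 8-cell stage in vivo. They enter the interaction tests of the 2-cell to 4-cell change below as well. All these results therefore rest on the same in vivo 4-cell libraries and are not independent of each other.

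Kif18b was at 8.50, 33.3 and 25.6 RPKM in vivo, 0.411, 0.425 and 0.246 in NTC and 1.06, 0 and 0.714 in NTM 4-cell embryos. Its log2 difference was -3.92 ± 0.55 in NTC (limma, adjusted p = 0.0010) and -3.75 ± 0.65 in NTM embryos (limma, adjusted p = 0.0068). The lowest in vivo embryo had more than every NT embryo. Of all genes, 43.9% had no overlap with in vivo embryos in NTC and 41.1% in NTM embryos. Kif23 was at 112, 137 and 145 RPKM in vivo, 16.7, 11.7 and 9.77 in NTC embryos, and at 11.5, 2.45 and 23.8 in NTM embryos. Its log2 difference was -3.29 ± 0.30 in NTC (limma, adjusted p = 1.2e-04) and -3.68 ± 0.69 in NTM embryos (limma, adjusted p = 0.0093), again without overlap.

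Kif22 was at 79.4, 101 and 116 RPKM in vivo, at 36.9, 19.1 and 22.5 in NTC and at 0.328, 2.59 and 10.4 in NTM embryos. Its differences were -1.91 ± 0.33 in NTC and -4.70 ± 0.76 in NTM embryos, and the 3 kinds of embryo did not overlap in these libraries. NTC and NTM 4-cell embryos were not compared in a test. Kif2c was at 59.3, 55.7 and 40.5 RPKM in vivo, 5.40, 7.47 and 15.9 in NTC embryos, and at 0.277, 8.94 and 16.0 in NTM embryos, differences of -2.42 ± 0.42 and -3.12 ± 0.91. Kif18a, a kinesin-8 that damps chromosome movement at the spindle equator, was at 28.9, 39.1 and 24.7 RPKM in vivo, 6.39, 7.13 and 7.87 in NTC embryos, and at 4.73, 2.87 and 7.11 in NTM embryos, differences of -1.95 ± 0.34 and -2.47 ± 0.49.

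Kif20a was called in NTC embryos, where it was at 9.44, 8.41 and 10.4 RPKM against 32.2, 68.6 and 67.7 in vivo (-2.38 ± 0.38, limma, adjusted p = 0.0020). In NTM embryos it was at 1.30, 0 and 28.1 RPKM and its difference of -3.74 missed the threshold (limma, adjusted p = 0.053), and the difference between the 2 kinds was not tested. Kif15, a motor that can support spindle bipolarity beside Kif11, was at 0.0435, 0.614 and 0.0405 RPKM in NTC embryos against 4.90, 4.92 and 4.21 in vivo (-2.23 ± 0.45). Kif4 was lower in NTC embryos (-1.85 ± 0.47), and Kif20b in NTM embryos (-1.76 ± 0.44). Kif11 was not called, at 35.4, 44.9 and 39.4 RPKM in vivo, 22.5, 37.3 and 59.1 in NTC embryos, and at 25.8, 24.2 and 43.6 in NTM embryos, with log2 differences of -0.11 and -0.39. Kif2a was not called either.

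**Figure D4:**
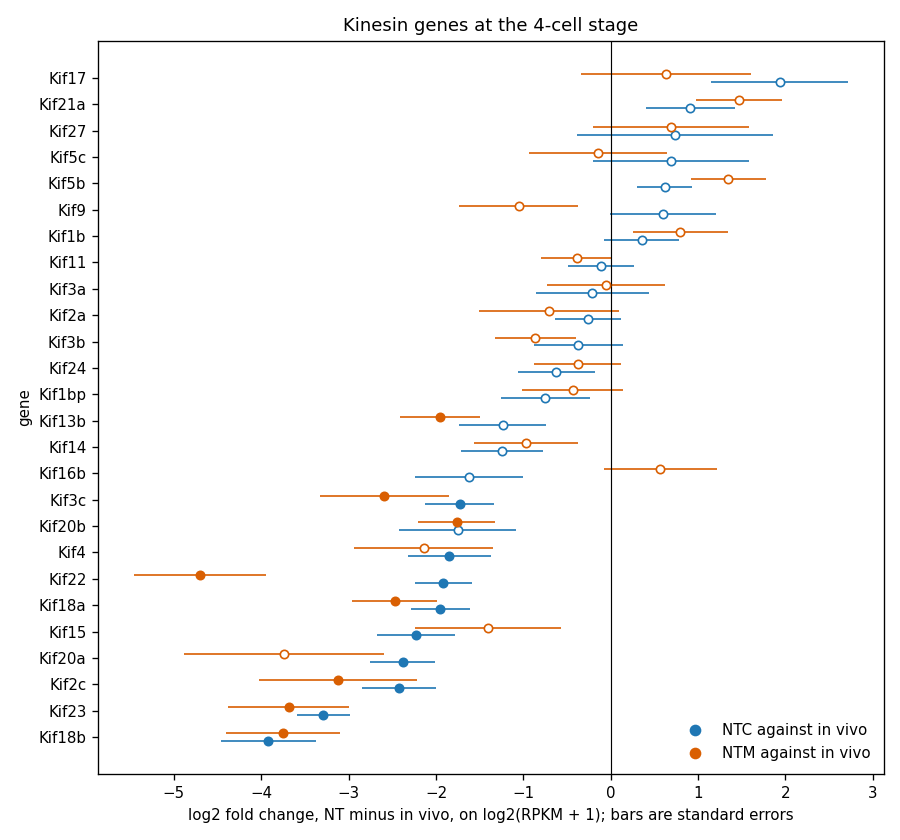
Log2 fold change of each kinesin gene tested at the 4-cell stage (horizontal axis, NT minus in vivo, with standard errors as bars) for NTC and NTM embryos. Filled points were called by limma and open points were not. All filled points lie to the left of 0, with Kif18b at -3.92 and -3.75.

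Of the transport genes, Kif3c was at 15.5, 11.2 and 14.5 RPKM in vivo, 4.57, 2.30 and 3.60 in NTC embryos, and at 5.81, 0 and 1.08 in NTM embryos, with differences of -1.73 ± 0.40 and -2.59 ± 0.74. Kif13b was lower in NTM embryos (-1.95 ± 0.45). Kif5b, the most abundant kinesin transcript of NT 4-cell embryos, was at 34.1, 61.3 and 44.5 RPKM in NTC and 118, 50.1 and 73.2 in NTM embryos, against 25.5, 28.9 and 33.6 in vivo. Every NT embryo was above every in vivo embryo, but the differences of 0.62 and 1.35 were not called (limma, adjusted p = 0.18 and 0.058).

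The mitochondrial share of reads differed between these groups, as given above. When values were scaled to reads of nuclear genes, an alternative chosen after seeing the data, the median of all genes moved from -0.39 to -0.06 in NTC and from -0.69 to -0.38 in NTM embryos. Then 8 kinesin genes were lower and 1 higher in NTC embryos, and 5 lower and 1 higher in NTM embryos. The higher gene was Kif5b in both (1.09 ± 0.32 and 1.87 ± 0.44). The 20.4% and 17.8% of all genes given above are from the fit without this scaling, and no share under it is given here. Kif18b, Kif23, Kif22 and Kif18a remained lower in both kinds under this scaling, while in NTM embryos the calls of Kif2c, Kif3c and Kif20b were lost. Without in vivo 4-cell replicates 1, 2 and 3 in turn, the NTM count was 3, 2 and 4, with Kif18b and Kif22 called each time, while the NTC count ran from 7 to 11. In one fit over all 20 groups, Kif20a, Kif22 and Kif4 were not called in NTC embryos. That fit called Kif14 lower (-1.25) and Kif17 higher (1.93, limma, adjusted p = 0.014) in them.

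Genes that work with these motors were counted from lists without kinesins. Of the 23 partners of kinesins, 19 were tested at the 4-cell stage. In NTC embryos 7 were lower and 1 higher, and in NTM embryos 9 were lower and 1 higher, where 20.4% and 17.8% of all genes were lower. Plk1, a mitotic kinase, had mean levels of 164 RPKM in vivo, against 2.61 in NTC and 9.47 in NTM embryos (log2 differences -5.46 ± 0.35 and -5.17 ± 1.06). Prc1, which bundles microtubules of the midzone, fell from a mean of 50.6 RPKM in vivo to 0.549 in NTC (-5.08 ± 0.38) and 2.93 in NTM embryos (-3.98 ± 0.60). Racgap1, the partner of Kif23 in centralspindlin, was lower in both kinds (-2.36 ± 0.33 and -3.19 ± 0.52). Cdca8, a subunit of the chromosomal passenger complex, was the gene that was higher in both kinds.

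Of 22 dynein and dynactin genes, whose motor walks towards the other end of the microtubule, 20 were tested in NTC embryos with 7 lower and 1 higher, and 19 in NTM embryos with 4 lower. The NTM count is close to the 17.8% of all genes that were lower, against 20.4% in NTC embryos. Of 16 tubulin genes, 12 were tested, with 7 lower in NTC and 5 in NTM embryos, beside the same shares of all genes. Tubb4b, a beta tubulin, had means of 1098 RPKM in vivo, against 10.7 in NTC and 12.2 in NTM embryos. The list of 8 proliferation markers summed to 1537 to 1770 RPKM in vivo, 405 to 550 in NTC and 364 to 877 in NTM 4-cell embryos, with none of its genes at 0 in a whole group and 5 lower in each kind. Proliferation markers thus moved with the spindle kinesins, and their part in the result was not tested. Oocyte markers summed to 79.3 to 109 RPKM in in vivo, 106 to 116 in NTC and 52.2, 110 and 486 in NTM 4-cell embryos. The highest NTM embryo thus stood well above every other 4-cell embryo, and its part in the result was not tested.

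Whether the change from the 2-cell to the 4-cell stage itself differed between kinds of embryo was tested as an interaction. In NTC embryos 5 of 27 kinesin genes were called (18.5%, against 14.3% of all genes), each with a smaller or more negative change than in vivo. They were Kif18b (difference of log2 changes -4.17 ± 0.74, limma, adjusted p = 0.0026), Kif2c (-3.32 ± 0.87), Kif23 (-2.90 ± 0.62), Kif18a (-2.46 ± 0.53) and Kif3c (-2.45 ± 0.63). In NTM embryos 1 of 26 was called (3.85%, against 9.91% of all genes), Kif18b at -4.06 ± 0.84 (limma, adjusted p = 0.0099). Its call was lost with a pseudocount of 0.1 (adjusted p = 0.074), where Kif21a was called in its place. The fall of Kif17 at this step was not called as different in either kind.

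In NTC blastulas 4 of 20 kinesin genes were higher than in vivo, while 8.81% of all genes were. In NTM blastulas 0 of 20 were called (0.746% of all genes). There 7 had an unadjusted p under 0.05 (limma), a share that was not counted for all genes. The median of all genes was shifted by 0.85 and 0.86 in the same direction, near the kinesin medians of 0.99 and 0.86. In vivo blastulas had 7730 to 7808 genes above 0, against 11498 to 13568 in NT blastulas.

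Kif3a was at 0.0178, 0 and 0 RPKM in vivo and 1.67, 5.51 and 6.91 in NTC blastulas (2.36 ± 0.56, limma, adjusted p = 0.043). Kif2c was at 0, 0 and 0.1198 RPKM in vivo against 5.55, 1.75 and 3.57 in NTC, and Kif18a at 0.0712, 0.0357 and 0.337 against 4.64, 4.71 and 2.2003. Kif20a was at 0, 0.0308 and 0 RPKM against 1.80, 2.201 and 3.15. The groups did not overlap in any of the 4 genes, as in 35.1% of all genes. The in vivo values rested on few reads, at most 6 per library for Kif3a, Kif2c and Kif20a and 11, 3 and 38 for Kif18a. The 4 calls were all lost under median-ratio scaling and with no filter on low values. The count was 0 without in vivo blastula replicates 2 or 3 or NTC replicate 2, and 2 without NTC replicate 1. Without in vivo replicate 1 none of the 4 genes was called and Kif5b was. With NTM replicate 3 left out, 6 genes were called in NTM blastulas, and scaling to nuclear reads gave 5. No share of all genes stands beside these counts.

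The 2 kinds of NT embryo were compared at the 1-cell stage, soon after injection. Kif17 was at 165, 168 and 161 RPKM in NTC and at 17.0, 30.7 and 17.9 in NTM embryos, a log2 difference of -2.90 ± 0.24 (limma, adjusted p = 2.0e-04). The groups did not overlap, as in 42.1% of all genes, and the in vivo 1-cell embryos, at 19.5, 51.9 and 78.9 RPKM, all lay below the NTC embryos. Kif17 was not detected above 0.0277 RPKM in any donor cell library. In all, 3 of 27 kinesin genes were lower in NTM embryos (11.1%, against 14.2% of all genes), the others being Kif3a (-1.77 ± 0.51) and Kif15 (-1.39 ± 0.40). The call of Kif17 held in all 13 alternatives, those of Kif3a and Kif15 in 6 and 5, and the count fell to 1 without NTC replicates 2 or 3 or NTM replicates 1 or 3.

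**Figure D5:**
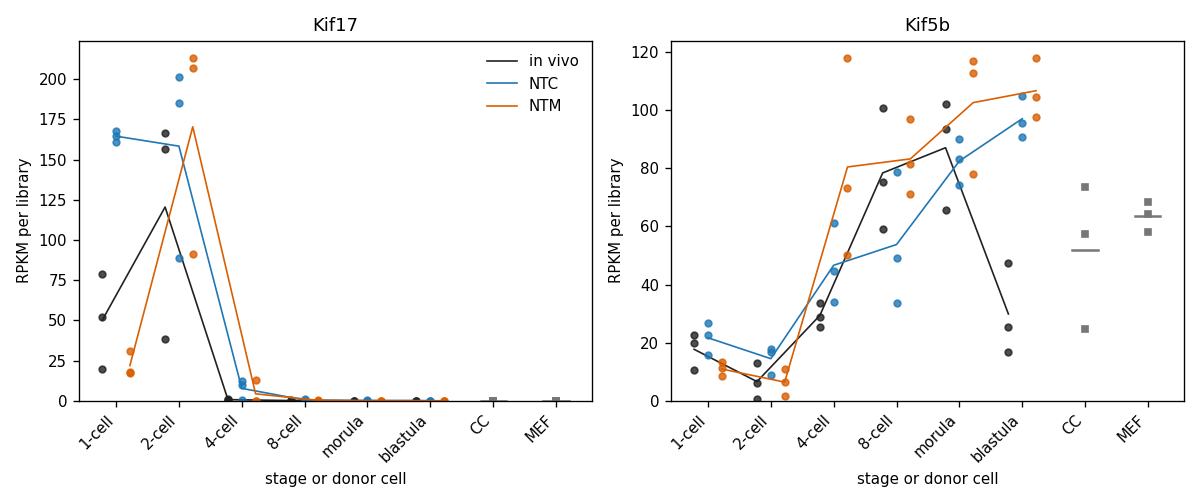
RPKM per library (vertical axes, linear) of Kif17 and Kif5b by stage and donor cell (horizontal axes), with points for single libraries and lines or bars for group means. Kif17 is at 38.4 to 213 RPKM in 2-cell embryos and at most 12.7 in 4-cell embryos, while Kif5b is at 16.9 to 47.4 in in vivo blastulas and at 90.8 to 118 in NT blastulas.

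In the donor cells, 1 of 24 kinesin genes differed between MEFs and CCs (4.17%, against 6.29% of all genes called in either direction, and 2.30% lower in MEFs). Kif21a, a kinesin-4 motor that restrains microtubule growth, was at 7.79, 17.1 and 12.4 RPKM in CCs and 0.00366, 1.94 and 0.187 in MEFs (-3.08 ± 0.75, limma, adjusted p = 0.047), with no overlap, as in 24.5% of all genes. This call was lost when any 1 of the 6 libraries was left out (adjusted p from 0.065 to 0.14), with a pseudocount of 0.1, with no filter on low values and with the replicate block. Kif26b, a kinesin-11 gene, was at 0.00182, 0 and 0.00431 RPKM in CCs and 3.93, 4.15 and 7.23 in MEFs. It was not called on log2(RPKM + 1), but was called with a pseudocount of 0.1 (5.62) and, as 1 of 7 genes, in one fit over all 20 groups (2.57). Spindle sums were 270, 0.530 and 19.9 RPKM in CCs and 74.5, 4.31 and 12.3 in MEFs. CC replicate 1, the library with high proliferation markers, thus held most of the spindle transcripts of its group, among them Kif20b at 72.3 RPKM against 0.136 and 0.131.

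Among the genes of low level, no cilium or hedgehog kinesin was called in the 26 comparisons or the 2 interaction tests as reported here (limma). Other settings gave 10 calls of Kif9, Kif24 or Kif27, 5 of them in one fit over all 20 groups. Among these, Kif9 was lower at the 8-cell than at the 4-cell stage in vivo with a pseudocount of 0.1 (-3.42, limma, adjusted p = 0.032) and in one fit (-1.47, limma, adjusted p = 0.023). Kif7, a regulator of hedgehog signalling, and Kif6 and Kif19a, which act in motile cilia, stayed at or under 0.657 RPKM in embryos. Kif27 reached 23.6 RPKM in NTC 4-cell replicate 2 while the other embryos of that group had 0.0939 and 0.350, and Kif21a reached 51.4 in NTC 8-cell replicate 3 against 12.6 and 4.64. Such values rest on single embryos.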

How the data were processed

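RNA of 54 single embryos and 6 donor cell samples was sequenced after cDNA amplification. The authors removed adapters, redundant and low-quality reads, aligned the rest with TopHat and Bowtie2, counted them per gene with HTSeq and named their unit FPKM. The deposited table names its values RPKM, as made by the authors. The submitters' processing notes also name Bowtie 0.12.2 and the mm8 build, while the study's methods name UCSC annotation with no build. Identifiers were matched to symbols through GENCODE mouse release M21 (27056 of 27238), and reads were recovered from the steps of the RPKM values at the annotated length for 22 kinesin genes and at a length read from their own values for 16.

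The kinesin genes and gene lists were chosen with earlier results of these data known. The study tested counts with DESeq, which RPKM values do not allow. Groups came from the sample labels. Per the labels, embryos of each stage came from 3 or more collections, but no label ties a library to one, so p-values measure the spread between these libraries. Pairs of groups were fitted with limma 3.58.1 (R 4.3.3) on log2(RPKM + 1), with a trend, for genes with a mean of at least 0.5 RPKM in the libraries compared. Benjamini-Hochberg adjustment ran over all genes tested, in 26 comparisons of 2 groups and 2 interaction tests. On simulated data with 3 libraries a group, in which few genes changed, the fit recovered no changes of moderate size. It recovered most of the large ones, which were simulated after that result was seen. From the 2-cell to the 4-cell stage in vivo 52.2% of all genes were called, so that the adjusted threshold was less strict there than in the simulation. The simulation thus does not give the power of that comparison. A gene that was not called may still differ. Values are given per library for up to 6 called genes with the largest change in each comparison and for the leading gene of each group. Values of other genes named here were chosen after they were seen. The settings varied were the pseudocount (0.1), the filter (none), the scaling (median ratio), the groups fitted (all 20 together), the block (replicate number), the fold change threshold (none) and the libraries (each left out in turn). Scaling to nuclear reads was added after seeing the data. The comparisons of 8-cell with morula stages and of NTM with NTC after the 1-cell stage were not fitted.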

Additional observations from a re-analysis of the deposited data

Results flagged for a closer look

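In 10 cases a change was flagged as different between kinds of embryo. In the test of the difference in change from the 2-cell to the 4-cell stage (NT minus in vivo, log2 scale), Kif18b (-4.17), Kif2c (-3.32), Kif23 (-2.90), Kif18a (-2.46) and Kif3c (-2.45) passed the threshold in NTC embryos and Kif18b (-4.06) in NTM embryos. In the other 4, all samples of one kind moved one way between 2 stages and all samples of the other kind the opposite way. The difference was not tested. These 4 came from a screen of all 38 genes over the stage steps fitted and both kinds of NT embryo. The share of all genes that moved so was not counted. In vivo, 55.6% of all genes had no overlap between the 4-cell and 8-cell stages, and 27.0% between morula and blastula. From the 4-cell to the 8-cell stage, Kif18b and Kif20a were lower in every in vivo 8-cell embryo than in every 4-cell embryo, and higher in every NTC 8-cell embryo than in every NTC 4-cell embryo, differences in log2 change of 4.78 and 4.43. From morula to blastula, Kif5b was lower in vivo and higher in NTC embryos (1.85), and Kif3b was lower in vivo and higher in NTM embryos (1.61). All in vivo blastulas were listed at 0 for Kif3b. The same in vivo 4-cell embryos enter the change from the 2-cell stage and the change to the 8-cell stage. Cases flagged in those 2 steps are therefore not independent of each other. Groups of 3 libraries were too small for a search for outlying samples.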

How the results depend on the processing

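The counts of 12 from the 2-cell to the 4-cell stage in vivo and of 9 in NTC 4-cell embryos stayed within 1.5 times under all alternatives run. The sign was checked only for the up to 6 called genes with the largest change in each comparison, and none of these turned its sign. Counts moved further as follows. With one fit over all 20 groups, counts were 1 (in vivo, 1-cell to 2-cell), 4 (in vivo, morula to blastula), 2 (NTC, 1-cell to 2-cell), 2 (NTC, 4-cell to 8-cell), 0 (NTC, morula to blastula), 4 (NTM, 2-cell to 4-cell), 2 and 1 (NTC and NTM against in vivo, 1-cell), 1 (NTM against in vivo, 2-cell), 1 (NTC against in vivo, 8-cell), 6 (NTM against in vivo, blastula), 1 (NTM against NTC, 1-cell), 7 (MEF against CC), and 3 and 5 (interactions, NTC and NTM). With a pseudocount of 0.1 they were 1 (NTC against in vivo, 8-cell), 7 and 5 (NTC and NTM blastulas) and 3 (NTC interaction). With no filter on low values they were 0 (in vivo and NTC, morula to blastula), 2 (NTM, 1-cell to 2-cell), 0 (NTC blastulas), 1 (NTM against NTC, 1-cell) and 0 (MEF against CC). With median-ratio scaling they were 7 (in vivo, 4-cell to 8-cell), 2 (NTM, 1-cell to 2-cell) and 0 (NTC blastulas). With no fold change threshold the count was 5 (NTM against NTC, 1-cell), and with reads of nuclear genes only it was 5 (NTM blastulas). A count does not say which genes: in one fit the 2 genes of the NTC step from the 1-cell to the 2-cell stage shared 0 with the 4 reported. The cause of these shifts was not tested.

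The labels number replicates 1 to 3 in each group, but same-numbered samples did not deviate together: in 0 of 26 comparisons was every pair's correlation over 0.1, with a range of -0.18 to 0.090, and in 0 did each library correlate best with its own number. With the replicate block, counts were 0 (in vivo, morula to blastula), 1 (NTC, morula to blastula), 1 and 1 (NTC and NTM against in vivo, 8-cell), 0 (NTC blastulas) and 0 (MEF against CC), and otherwise stayed within 1.5 times.

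With each library left out in turn, counts ran from 0 to 1 (in vivo, morula to blastula), 2 to 5 (NTC, 1-cell to 2-cell), 3 to 5 (NTC, 2-cell to 4-cell), 0 to 2 (NTC, morula to blastula), 0 to 6 (NTM, 1-cell to 2-cell), 0 to 1 (NTM, morula to blastula), 0 to 2 and 0 to 1 (NTC and NTM against in vivo, 1-cell), 2 to 9 (NTM against in vivo, 4-cell), 0 to 4 and 0 to 6 (NTC and NTM blastulas), 1 to 3 (NTM against NTC, 1-cell), 0 to 1 (MEF against CC), and 3 to 7 and 1 to 2 (interactions, NTC and NTM). The lowest count from the 2-cell to the 4-cell stage in NTC embryos was reached without NTC 4-cell replicate 3, and from the 1-cell to the 2-cell stage without NTC 1-cell replicate 2, while the NTC interaction was lowest without in vivo 4-cell replicate 1. Groups of 3 single embryos, and values that rest on few reads in in vivo blastulas, limit these comparisons.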
